A study of Homo sapiens with 6 samples.

Results

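Described here are the genes of the citric acid cycle and of fatty acid oxidation, 41 in all, in xenografts treated with bevacizumab and in saline controls. They were chosen by name, with earlier results of these data known. Every probe set that the array annotation gives to 1 of these symbols alone was taken, which made 80 of the 41091 single-gene probe sets. There are 17 genes of the cycle and its entry and refilling reactions, 5 of carnitine transport, 14 of beta-oxidation, 3 of electron transfer from beta-oxidation, and 2 regulators. The cycle class includes the cytosolic IDH1 and MDH1, and the beta-oxidation class the peroxisomal ACAA1. A probe set of their own was found for 39 of them, of 19775 genes with one. CPT1B has 2 probe sets, both shared with a readthrough gene, and was left out, and FH was not analysed here.

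The bevacizumab group holds 3 arrays of U87-EV tumours, a subcutaneous xenograft of the human glioblastoma cell line U87. These tumours were given 10 mg/kg of the VEGF antibody into the peritoneum every 3 days. The control group holds 3 arrays of such tumours given saline. Each group had 5 mice at the start. All tumours were grown in female BALB/c SCID mice aged 6 to 8 weeks at implantation, which lack T and B cells but keep other host cells. Treatment began at tumour volumes of 150 to 200 mm3 and ended when tumours were about 15 to 30 mm across. Bevacizumab binds human VEGF-A. The labels do not say what EV stands for, nor whether the arrays of a group come from separate mice. The tests therefore rest on the spread among arrays, part of which could be technical.

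The citric acid cycle runs in the mitochondrial matrix. It oxidises the acetyl group of acetyl-CoA to carbon dioxide and passes the electrons to the respiratory chain as NADH and FADH2. Fatty acids reach the same matrix as acyl-carnitines through the carnitine shuttle, and each round of beta-oxidation shortens them by an acetyl-CoA unit. Both routes need oxygen as the final electron acceptor. In cells short of oxygen, pyruvate is known to be diverted from the cycle to lactate, and fatty acids to be stored rather than oxidised.

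Values are the authors' GCRMA values, taken as log2 from their range, and a difference is bevacizumab minus control. Each gene was read from its brightest probe set, genes with a mean of at least 4 were tested with limma over the whole table of 10233 genes, and an adjusted p under 0.05 (Benjamini-Hochberg) counts as past the threshold. Array medians lay between 2.49 and 2.51. Array profiles correlated at 0.9924 to 0.9967 within groups and at 0.9858 to 0.9932 between groups (Pearson, across probe sets, which are not independent replicates). Of 9 glioblastoma and glial markers, 5 had a mean of at least 4, among them VIM, CD44 and NES, while the glial genes GFAP, S100B and OLIG2 were under 4 on every array. Of these 5, 1 passed as lower and 1 as higher, and their median difference was 0.11. NES and SOX9 had differences below 0, and VIM, CD44 and CHI3L1 had differences above 0. The summed linear signal of all 9 was 59274 to 65878 on bevacizumab arrays and 54352 to 56440 on control arrays, so the markers did not all move with their sum. All 6 adipocyte markers were under 4 on every array. Of 6 skeletal muscle markers 5 were too, with a sum of 57.7 to 72.2 on bevacizumab arrays and 41.1 to 43.5 on control arrays. The other muscle marker, TNNT3, was tested and rose by 1.07. Endothelial markers were under 4 on every array for 6 of 8, with a sum of 162.7 to 195.0 on bevacizumab arrays and 158.2 to 170.7 on control arrays, and macrophage markers for 5 of 6. The 6 mural markers, DES alone under 4, summed to 3394 to 3838 on bevacizumab arrays, against 8215 to 10592 on control arrays. Of the 5 mural markers tested 2 fell, RGS5 and ACTA2, which carry this drop, while PDGFRB, CSPG4 and MCAM had differences above 0 and did not pass, and the median of the 5 was 0.16. The part of these marker differences in the results below was not tested.

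The genes of the cycle and of fatty acid oxidation were on balance lower after bevacizumab. Of the 38 tested, 13 fell and none rose, and 25 did not pass. The 13 are 34.2% of those tested. Of all genes tested 19.1% passed, 9.97% as lower and 9.09% as higher. At an unadjusted p under 0.05, 18 were lower and 1 was higher. Of all 10233 genes 3664 were under it, in either direction. The median difference over the 38 was -0.24, against -0.01 over all 10233 genes, and 29 of 38 differences (76.3%) were below 0, against 51.4% of all genes. The bevacizumab and control arrays did not overlap in 22 of the 38 with the bevacizumab arrays lower (57.9%), where 22.0% of all genes did so, and in 2 with them higher, where 19.0% of all genes did so. The genes were chosen with earlier results of these data known, so these shares are a description and not a test. In a bulk sample less RNA per cell and fewer cells that make it cannot be told apart. Among the 13, IDH3B moved the most and fell by 47.6% on the linear scale, and MDH1 moved the least and fell by 24.8%.

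**Figure D1:**
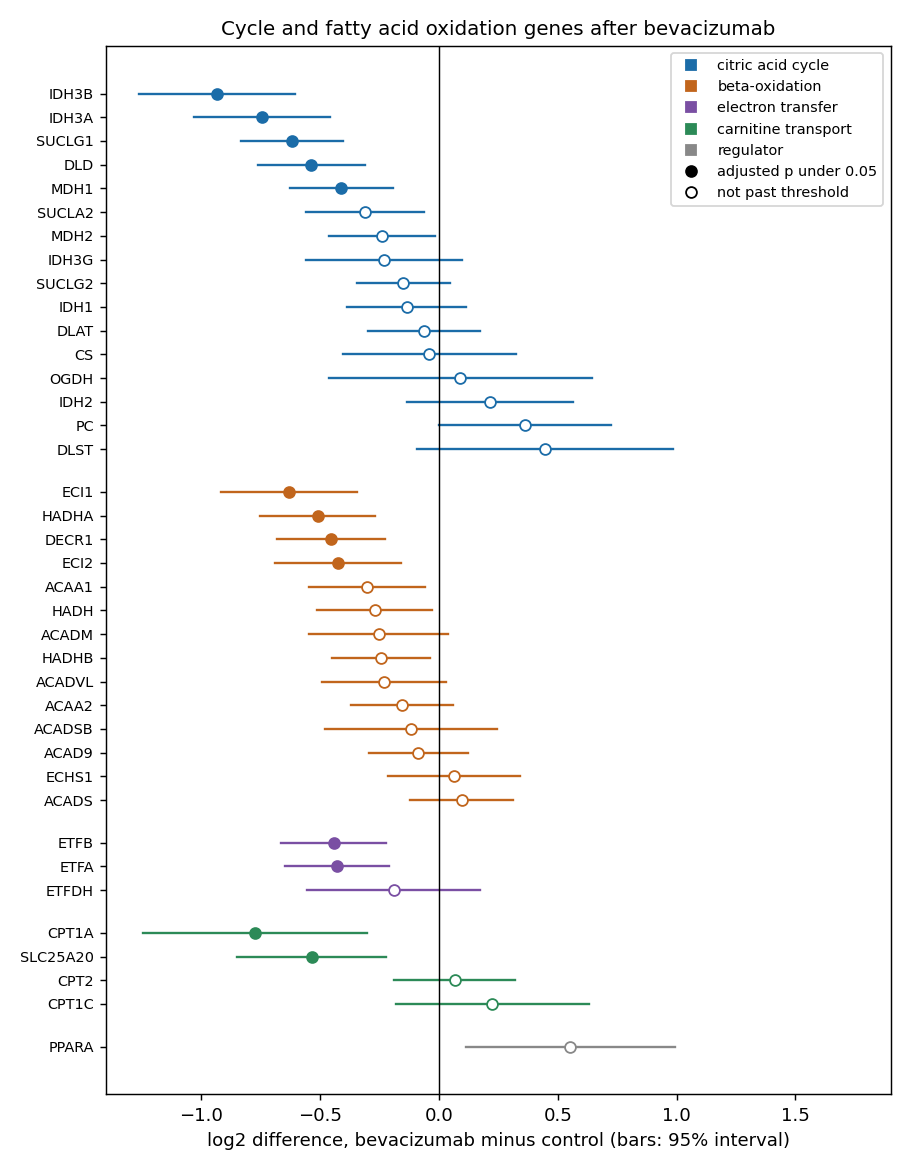
Log2 differences (bevacizumab minus control, n = 3 arrays each) of the 38 tested genes by class, with 95% intervals from limma; filled points are past an adjusted p of 0.05. The 13 filled points all lie left of 0, between -0.93 and -0.41, and PPARA and DLST lie farthest to the right.

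The calls rested on all 6 arrays. Without control 1, 2 or 3 the number of genes lower was 2, 4 and 3, and without bevacizumab 1, 2 or 3 it was 11, 5 and 7. The whole table had 1950 genes past the threshold, in either direction, with all arrays. Without control 1, 2 or 3 it had 578, 558 and 897, and without bevacizumab 1, 2 or 3 it had 2074, 1075 and 1476. Of the 13, IDH3B and SUCLG1 passed in every one of these 6 fits, 10 were lost in 1 to 5 of them, and CPT1A was lost in all 6. Other settings ended both lasting calls: IDH3B did not pass without the filter (limma adjusted p = 0.0516), nor SUCLG1 with probe sets averaged (0.326). The 3' to 5' difference of the ACTB control probe sets, a sign of RNA degradation, was 1.81 ± 0.16 on bevacizumab arrays and 1.38 ± 0.26 on control arrays (SD, n = 3 each; exact permutation p = 0.2). That of GAPDH was -0.02 ± 0.03 on bevacizumab arrays and -0.12 ± 0.02 on control arrays (exact permutation p = 0.1, the smallest that 3 against 3 allow). With the ACTB difference in the limma model no gene of the 38 passed (17 lower at an unadjusted p under 0.05) and the median was -0.35. With the GAPDH difference none passed either (4 lower and 2 higher at an unadjusted p under 0.05) and the median was -0.22. Few of all genes passed with the ACTB difference and none with that of GAPDH. Of all 10233 genes, 2643 and 1427 had an unadjusted p under 0.05 in these fits. The groups did not overlap in the GAPDH difference, so its part and that of treatment cannot be told apart.

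Of 16 genes of the cycle tested, 5 fell (31.2%), none rose and 11 did not pass, with a median of -0.19. The 5 were IDH3B, IDH3A, SUCLG1, DLD and the cytosolic MDH1. Without control 1, 2 or 3 the number was 2, 3 and 3, and without bevacizumab 1, 2 or 3 it was 5, 4 and 4. Counts over all genes in these fits are given above.

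IDH3 is the NAD-dependent isocitrate dehydrogenase of the cycle, a complex of catalytic alpha subunits (IDH3A) with beta (IDH3B) and gamma (IDH3G) subunits. IDH3B read 8.61, 8.32 and 8.24 on bevacizumab arrays 1 to 3, against 9.48, 9.31 and 9.19 on control arrays 1 to 3. IDH3A read 8.92, 8.74 and 8.61 on bevacizumab arrays, against 9.58, 9.35 and 9.57 on control arrays. Every bevacizumab array was below every control array for both genes. IDH3B fell by 0.93 (SE 0.13, limma adjusted p = 0.0094), and all 3 of its probe sets passed when each probe set was tested on its own (-0.93, -0.997 and -0.50). IDH3A fell by 0.74 (SE 0.12, adjusted p = 0.012); its second probe set, with a difference of -0.50, did not pass (adjusted p = 0.11), and the third was under 4. Without control 1 IDH3A had an adjusted p of 0.0567.

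IDH3G did not pass. It read 9.97, 10.29 and 10.22 on bevacizumab arrays, against 10.59, 10.30 and 10.28 on control arrays, a difference of -0.23 (95% interval -0.56 to 0.10, adjusted p = 0.265), and its second probe set had a difference of 0.08. Within each array, the log2 value of IDH3B minus that of IDH3G was -1.35, -1.97 and -1.98 on bevacizumab arrays, against -1.12, -0.998 and -1.09 on control arrays. The difference in response between these subunits was -0.70 for IDH3B and -0.51 for IDH3A against IDH3G (exact permutation p = 0.1 for both, the smallest possible, and 0.188 after Benjamini-Hochberg adjustment over 15 such pairs, which were chosen after values were seen). The test could not have passed at this number of arrays.

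The promoters of the 3 subunits are shown because 2 of these genes fell and the third did not pass. Each is the RefSeq window from 250 bases before to 50 bases after the gene's start on GRCh38.p14, 5′ to 3′ on the gene's strand: IDH3A at chr15:78149112-78149411 (plus strand), IDH3B at chr20:2664167-2664466 (minus strand) and IDH3G at chrX:153794326-153794625 (minus strand). Capitals mark CCGGAAG, the core bound by ETS factors such as GABPA, and ACGTG, the core of hypoxia response elements, on either strand.
IDH3A: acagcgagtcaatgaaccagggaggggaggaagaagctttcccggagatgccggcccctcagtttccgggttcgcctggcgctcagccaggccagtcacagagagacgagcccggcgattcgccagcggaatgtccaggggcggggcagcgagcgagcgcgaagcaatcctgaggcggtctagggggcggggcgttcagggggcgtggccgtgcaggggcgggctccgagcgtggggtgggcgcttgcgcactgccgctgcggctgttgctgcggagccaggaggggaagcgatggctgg
IDH3B: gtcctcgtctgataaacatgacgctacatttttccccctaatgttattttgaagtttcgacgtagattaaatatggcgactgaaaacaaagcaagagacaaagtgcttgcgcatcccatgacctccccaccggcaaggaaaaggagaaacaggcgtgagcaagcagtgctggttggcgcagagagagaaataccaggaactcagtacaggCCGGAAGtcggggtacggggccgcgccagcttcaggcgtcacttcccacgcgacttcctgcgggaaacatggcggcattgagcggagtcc
IDH3G: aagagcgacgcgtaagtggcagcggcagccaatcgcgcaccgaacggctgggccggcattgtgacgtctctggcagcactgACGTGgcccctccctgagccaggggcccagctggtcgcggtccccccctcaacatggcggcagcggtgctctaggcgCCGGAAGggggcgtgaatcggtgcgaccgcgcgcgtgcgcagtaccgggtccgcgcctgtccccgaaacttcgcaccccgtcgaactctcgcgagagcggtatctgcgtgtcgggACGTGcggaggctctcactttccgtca
The IDH3G window holds ACGTG 2 times and the IDH3A and IDH3B windows do not hold it. The IDH3B and IDH3G windows hold CCGGAAG once each. Of all 35116 promoter windows, 21.4% hold ACGTG and 10.3% hold CCGGAAG.

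The other isocitrate dehydrogenases use NADP. IDH1, the cytosolic enzyme, had a difference of -0.14 (95% interval -0.39 to 0.11) and IDH2, the mitochondrial one, of 0.21 (-0.14 to 0.56), and neither passed. IDH2 read 8.52 on bevacizumab 1, just below the controls at 8.54 to 8.70, and 8.97 and 8.96 on bevacizumab 2 and 3, above them.

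Succinyl-CoA synthetase pairs a common alpha subunit, SUCLG1, with an ADP-forming beta subunit, SUCLA2, or a GDP-forming one, SUCLG2. SUCLG1 read 10.82, 10.97 and 10.88 on bevacizumab arrays, against 11.47, 11.46 and 11.60 on control arrays, with a wide gap between the groups. It fell by 0.62 (SE 0.09, limma adjusted p = 0.0093). Its other probe set was under 4 on every array, with a difference of 0.04. SUCLA2 had a difference of -0.31 (SE 0.10, adjusted p = 0.0824) and SUCLG2 of -0.15 (SE 0.08, adjusted p = 0.233); in both the bevacizumab arrays lay below every control array. SUCLG1 minus SUCLG2 within arrays was 0.14, 0.31 and 0.17 on bevacizumab arrays and 0.69, 0.65 and 0.69 on control arrays. The difference in response of the alpha subunit was -0.47 from SUCLG2 and -0.31 from SUCLA2 (exact permutation p = 0.1 for each, the smallest possible, and 0.188 after adjustment).

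The 2-oxoglutarate dehydrogenase complex is made of OGDH, DLST and DLD, and DLD also serves the pyruvate dehydrogenase complex, whose acetyltransferase is DLAT. DLD read 11.37, 11.18 and 11.30 on bevacizumab arrays, against 11.78, 11.77 and 11.92 on control arrays. It fell by 0.54 (SE 0.09, adjusted p = 0.0153), a call lost without any 1 of the controls (highest adjusted p 0.0578), and its dimmer probe set had a difference of -0.09. DLST had a difference of 0.44 (95% interval -0.09 to 0.98), with 8.80, 8.84 and 8.51 on bevacizumab arrays and 8.00, 8.07 and 8.75 on control arrays, so control 3 lay among the bevacizumab arrays. OGDH read 7.58 on bevacizumab 1 but 8.40 and 8.37 on bevacizumab 2 and 3, against 8.06, 7.99 and 8.03 on control arrays. Its difference of 0.09 (-0.47 to 0.64) therefore spans arrays on both sides of the controls. DLAT had a difference of -0.06 (-0.30 to 0.17).

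Malate dehydrogenase closes the cycle. MDH1, the cytosolic form that works in the malate-aspartate shuttle, read 12.10, 12.12 and 11.98 on bevacizumab arrays, against 12.39, 12.48 and 12.55 on control arrays. It fell by 0.41 (SE 0.09, limma adjusted p = 0.0277) and stayed past the threshold without bevacizumab 1, but not without any other array (highest adjusted p 0.0923). The mitochondrial MDH2 had a difference of -0.24 (SE 0.09, adjusted p = 0.117), with no overlap between groups. Citrate synthase, CS, which starts the cycle, showed 10.12 on bevacizumab 1 and 10.57 and 10.59 on bevacizumab 2 and 3, against 10.56, 10.46 and 10.39 on control arrays. Its difference was -0.04 (95% interval -0.40 to 0.32). PC, pyruvate carboxylase, which refills oxaloacetate, had a difference of 0.36 (95% interval -0.0017 to 0.72, adjusted p = 0.141).

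Bevacizumab 1 stood below bevacizumab 2 and 3 for CS, OGDH, IDH2, PC and IDH3G. Without it OGDH and PC were past the threshold and higher (adjusted p = 0.0432 and 0.0285), and without control 3 DLST was (adjusted p = 0.0491).

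**Figure D2:**
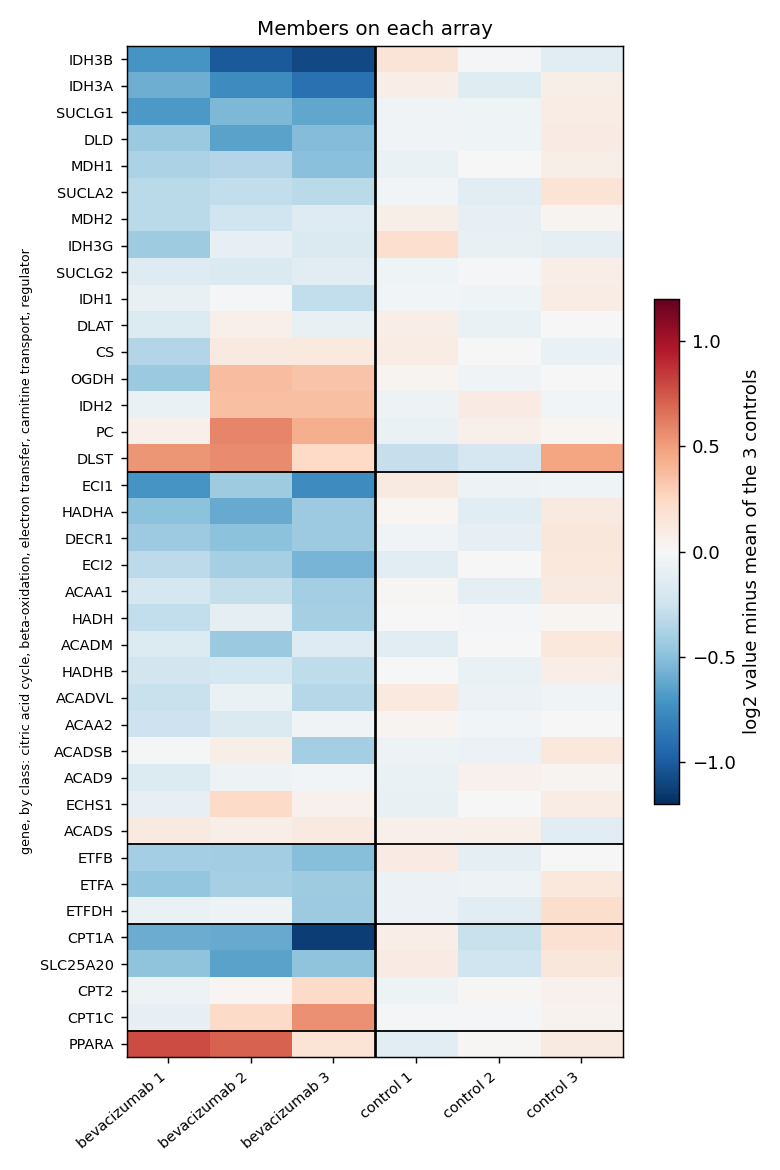
Log2 value of each tested gene on each of the 6 arrays minus the mean of its 3 controls, as colour (blue lower, red higher), with genes in the same order as in the plot of differences and black lines between classes. The rows from IDH3B to MDH1 are blue on all 3 bevacizumab arrays, while CS, OGDH and IDH2 are blue on bevacizumab 1 and red on bevacizumab 2 and 3.

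Of 4 genes of the carnitine shuttle tested, 2 fell, CPT1A and SLC25A20, and CPT2 and CPT1C did not pass (median -0.24). CPT1A, the liver-type carnitine palmitoyltransferase of the outer membrane and the step that controls entry, read 8.37, 8.36 and 7.84 on bevacizumab arrays, against 9.05, 8.70 and 9.15 on control arrays. SLC25A20, the carnitine-acylcarnitine translocase of the inner membrane, read 8.02, 7.86 and 8.01 on bevacizumab arrays, against 8.60, 8.26 and 8.64 on control arrays. Neither gene's groups overlapped.

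CPT1A fell by 0.77 (SE 0.19, limma adjusted p = 0.0408) and SLC25A20 by 0.54 (SE 0.13, adjusted p = 0.0369). Leaving out any 1 array ended the call of CPT1A (adjusted p 0.0515 to 0.13). SLC25A20 passed without control 2 but not without any other array (highest adjusted p 0.122). The other 3 probe sets of CPT1A were under 4 on every array, and when each probe set was tested on its own the bright one had an adjusted p of 0.0502.

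CPT2, which releases the acyl group inside the inner membrane, read 8.09, 8.18 and 8.38 on bevacizumab arrays, against 8.09, 8.16 and 8.21 on control arrays, a difference of 0.07 (95% interval -0.19 to 0.32). CPT1C, a brain form with little activity of its own, read 5.69, 6.03 and 6.34 on bevacizumab arrays, against 5.78, 5.77 and 5.84 on control arrays (difference 0.22, interval -0.18 to 0.63). Within arrays CPT1A minus CPT2 was 0.28, 0.19 and -0.55 on bevacizumab arrays, against 0.96, 0.54 and 0.95 on control arrays. The difference in response from CPT2 was -0.84 for CPT1A and -0.60 for SLC25A20 (exact permutation p = 0.1 for each, the smallest possible, and 0.188 after adjustment), so a split between the steps was not established.

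Of 14 genes of beta-oxidation tested, 4 fell (28.6%), none rose and 10 did not pass, and 12 of 14 differences were below 0 and the median was -0.25. The number lower was 0 without control 1, 2 or 3, and 4, 1 and 3 without bevacizumab 1, 2 or 3. Far fewer of all genes, too, passed without control 1, 2 or 3, as given above.

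The 4 that fell were ECI1, HADHA, DECR1 and ECI2. ECI1, an isomerase that moves the double bond of unsaturated fatty acids, read 7.27, 7.55 and 7.23 on bevacizumab arrays, against 8.10, 7.92 and 7.94 on control arrays. ECI2, an isomerase of the same kind, read 9.28, 9.19 and 9.04 on bevacizumab arrays, against 9.47, 9.60 and 9.71 on control arrays. DECR1, the reductase that also serves unsaturated fatty acids, read 10.61, 10.55 and 10.62 on bevacizumab arrays, against 11.01, 10.95 and 11.19 on control arrays. In all 3 the bevacizumab arrays lay below every control array. ECI1 fell by 0.63 (SE 0.12, limma adjusted p = 0.0187), DECR1 by 0.46 (SE 0.09, adjusted p = 0.0243) and ECI2 by 0.42 (SE 0.11, adjusted p = 0.0432). Of the 6 fits without 1 array, ECI1 lost the call in 3, DECR1 in 4 and ECI2 in 5 (highest adjusted p 0.0723, 0.0737 and 0.125), each of them without control 1, 2 or 3. ECI2 also did not pass in the fit over probe sets (adjusted p = 0.0534). The peroxisomal reductase DECR2 had a difference of -0.17 (limma adjusted p = 0.344), and PECR, a peroxisomal reductase of another step, of 0.25 (adjusted p = 0.291).

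HADHA and HADHB are the alpha and beta subunits of the trifunctional protein, which carries out the later steps of each round on long chains. HADHA read 10.53, 10.41 and 10.58 on bevacizumab arrays, against 11.05, 10.90 and 11.13 on control arrays. It fell by 0.51 (SE 0.10, limma adjusted p = 0.021), and its 3 probe sets, at -0.51, -0.46 and -0.74, all passed on their own. HADHB, with 10.94, 10.95 and 10.85 on bevacizumab arrays, against 11.16, 11.08 and 11.24 on control arrays, had a difference of -0.25 (SE 0.08, adjusted p = 0.0941). The groups were apart for both subunits, and HADHA minus HADHB differed by -0.27 (exact permutation p = 0.1, the smallest possible).

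The pair is shown in sequence because the genes start 307 bases apart on opposite strands and so share a promoter region, while 1 passed and the other did not. The windows are chr2:26244583-26244882 (minus strand) for HADHA and chr2:26244689-26244988 (plus strand) for HADHB on GRCh38.p14, from RefSeq, each 5′ to 3′ on its gene's strand. Capitals mark the 194 bases that both windows cover, read from opposite strands.
HADHA: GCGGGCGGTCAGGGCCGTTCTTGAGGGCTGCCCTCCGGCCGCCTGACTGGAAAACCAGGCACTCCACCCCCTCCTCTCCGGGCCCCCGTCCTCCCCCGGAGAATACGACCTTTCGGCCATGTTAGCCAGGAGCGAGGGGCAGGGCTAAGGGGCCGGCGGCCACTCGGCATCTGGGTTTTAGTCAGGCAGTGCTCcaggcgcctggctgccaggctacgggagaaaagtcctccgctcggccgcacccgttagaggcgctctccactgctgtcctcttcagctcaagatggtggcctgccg
HADHB: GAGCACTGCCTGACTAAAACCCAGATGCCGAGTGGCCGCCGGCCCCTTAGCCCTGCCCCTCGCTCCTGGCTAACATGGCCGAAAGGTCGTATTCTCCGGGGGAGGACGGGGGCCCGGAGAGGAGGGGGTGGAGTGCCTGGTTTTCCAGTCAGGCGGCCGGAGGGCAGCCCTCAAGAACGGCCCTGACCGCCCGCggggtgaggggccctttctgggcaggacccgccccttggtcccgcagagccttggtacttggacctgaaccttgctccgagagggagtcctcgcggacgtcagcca
Neither window holds ACGTG or CCGGAAG.

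The acyl-CoA dehydrogenases, which take the first step of each round, did not pass. ACADM, for medium chains, had a difference of -0.25 (95% interval -0.55 to 0.04), and ACADVL, for very long chains, of -0.23 (-0.49 to 0.03). Both had bevacizumab arrays below every control array, by a narrow margin for each. ACADSB (-0.12), ACAD9 (-0.09) and ACADS (0.10) were closer to 0, the last at a level near 5. The hydratase ECHS1 had a difference of 0.06 (-0.22 to 0.34) and the dehydrogenase HADH of -0.27 (-0.51 to -0.03, adjusted p = 0.107). Of the thiolases, ACAA1, the peroxisomal one, had -0.30 (adjusted p = 0.0843) and ACAA2, the mitochondrial one, -0.16 (adjusted p = 0.256).

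The electrons of the acyl-CoA dehydrogenases pass to the electron transfer flavoprotein, a dimer of ETFA and ETFB, and from it through ETFDH to ubiquinone. ETFA read 11.57, 11.64 and 11.61 on bevacizumab arrays, against 11.97, 11.98 and 12.16 on control arrays. ETFB read 10.59, 10.59 and 10.49 on bevacizumab arrays, against 11.10, 10.90 and 11.01 on control arrays. The 2 subunits differed by nearly the same amount: ETFA fell by 0.43 (SE 0.09, limma adjusted p = 0.0252) and ETFB by 0.44 (SE 0.09, adjusted p = 0.0244), and ETFA minus ETFB changed by 0.01. ETFDH had a difference of -0.19 (95% interval -0.56 to 0.17), with overlapping groups. Without control 1, 2 or 3, or without bevacizumab 2 or 3, neither ETFA nor ETFB passed (highest adjusted p 0.071 and 0.0819).

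**Figure D3:**
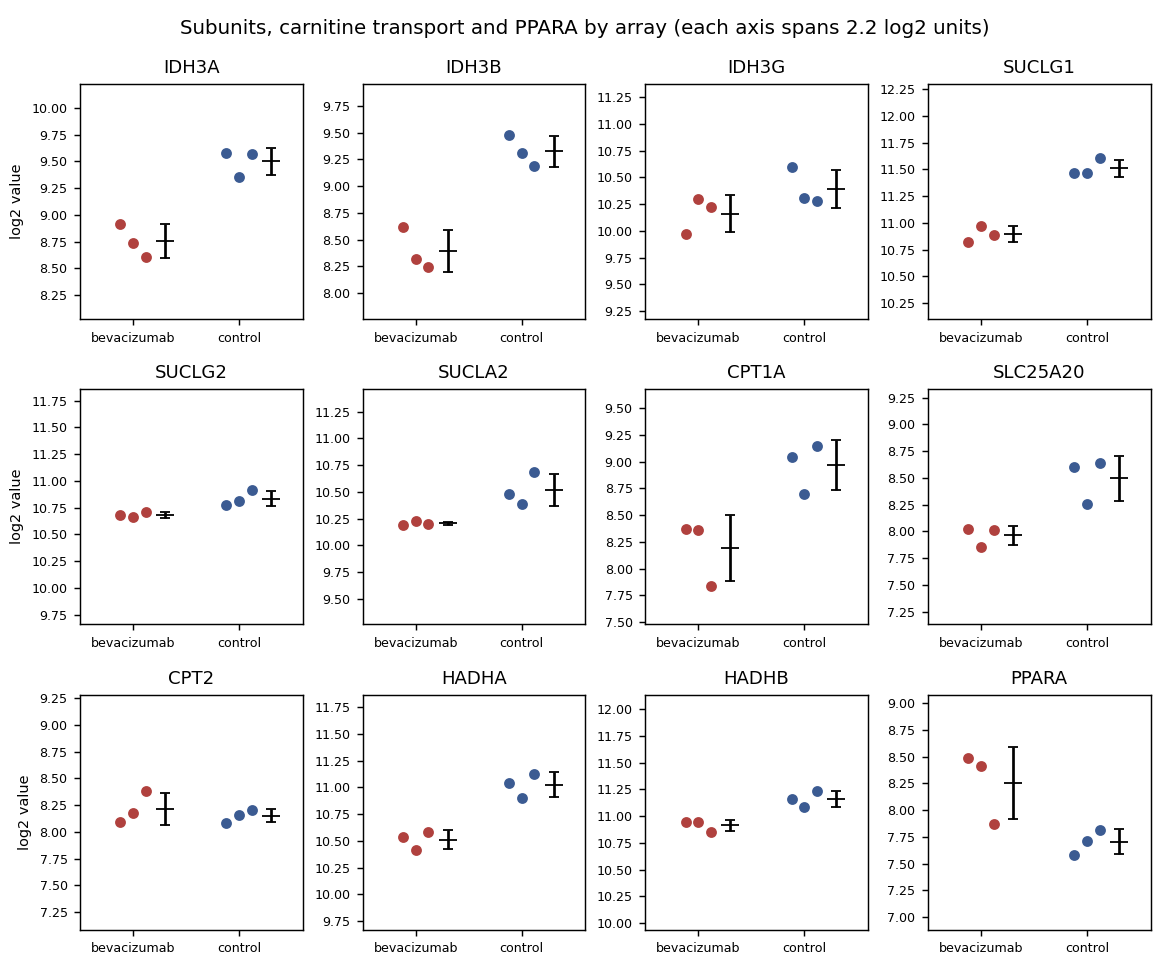
Log2 values on each array (points) with the mean and SD of 3 arrays (black) for 12 genes, bevacizumab left of control in each panel, each axis spanning 2.2 log2 units around the gene's mean. IDH3A, IDH3B, SUCLG1, CPT1A, SLC25A20 and HADHA lie lower with no overlap, IDH3G and CPT2 overlap, and PPARA lies higher.

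Neither regulator passed at the gene level. PPARA, the nuclear receptor that switches on genes of fatty acid oxidation, has 9 probe sets here, of which 4 had a mean of at least 4. The brightest read 8.48, 8.41 and 7.87 on bevacizumab arrays, against 7.58, 7.71 and 7.81 on control arrays, a difference of 0.55 (SE 0.18, limma adjusted p = 0.0819) that did not pass. The next read 7.06, 7.88 and 7.29 on bevacizumab arrays, against 6.74, 6.72 and 6.79 on control arrays (difference 0.66, adjusted p = 0.0909 in the fit over probe sets). The groups did not overlap on either of them.

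In that fit, over 18469 probe sets, the other 2 bright PPARA probe sets passed. One read 5.79, 6.71 and 6.12 on bevacizumab arrays, against 4.85, 4.98 and 5.05 on control arrays, a rise by 1.25 (SE 0.24, limma adjusted p = 0.0232). The other read 5.59, 6.17 and 5.43 on bevacizumab arrays, against 4.93, 4.88 and 4.98 on control arrays, a rise by 0.80 (SE 0.20, adjusted p = 0.0473). All 4 bright probe sets of PPARA were thus higher on every bevacizumab array than on any control, by 0.55 to 1.25, while the other 5 were under 4 in the mean. At the gene, PPARA passed without bevacizumab 3 (adjusted p = 0.0202). It also passed with all 9 probe sets averaged (adjusted p = 0.0369). With the ACTB 3' to 5' difference in the model PPARA had a difference of 0.17, and with that of GAPDH of 1.25. It did not pass in either fit.

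PPARGC1A, the coactivator that promotes mitochondrial gene expression, was under 4 on every array of its 2 probe sets and was not tested. Over all 63 bright probe sets of these genes, 15 passed as lower and the 2 of PPARA as higher, where 7.98% of all probe sets were lower and 7.46% higher.

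**Figure D4:**
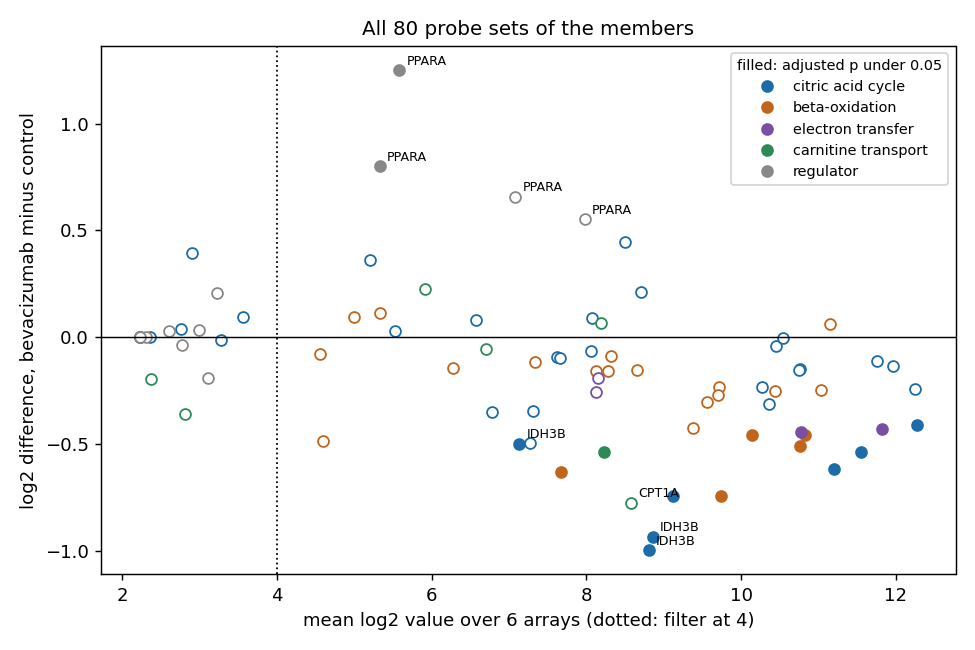
Log2 difference (bevacizumab minus control) of each of the 80 probe sets against its mean log2 value over 6 arrays, coloured by class; filled points are past an adjusted p of 0.05 in the fit over probe sets, and the dotted line is the filter at 4. The 4 PPARA probe sets right of the line lie between 0.55 and 1.25, and the 3 of IDH3B between -0.997 and -0.50.

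The classes are set side by side here as a description, and the differences between them were not tested. Beta-oxidation had a median of -0.25, carnitine transport of -0.24, the cycle of -0.19 and electron transfer of -0.43. The cycle ran from -0.93 to 0.44, beta-oxidation from -0.63 to 0.10 and carnitine transport from -0.77 to 0.22. As means over the members tested, the cycle lay at -0.29, -0.13 and -0.21 relative to its control mean on bevacizumab 1, 2 and 3, while the control arrays lay between -0.05 and 0.05. For beta-oxidation the bevacizumab arrays lay at -0.25, -0.21 and -0.30 and the control arrays between -0.04 and 0.05. For carnitine transport the bevacizumab arrays lay at -0.31, -0.25 and -0.21 and the control arrays between -0.13 and 0.10. In these 3 classes every bevacizumab array was below every control array. With all probe sets of a gene averaged, CPT1A fell under the filter and the medians were 0.0057 for carnitine transport, -0.24 for beta-oxidation and -0.095 for the cycle. With the GAPDH 3' to 5' difference in the model they were -0.26, -0.15 and -0.33 in that order, so the order of the classes depends on the setting.

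Of 82 further genes of these pathways, 53 were tested, of which 12 fell, 1 rose and 40 did not pass (median -0.16). Of all genes tested, 9.97% passed as lower and 9.09% as higher. The counts by list that follow are small, and none was tested against these shares. Among the cycle genes ACO1, SDHA, SDHC and SDHD, 1 of 4 fell, SDHA, the flavoprotein of succinate dehydrogenase, by 0.47 (SE 0.09, limma adjusted p = 0.022). Of 15 genes of pyruvate entry, refilling and exchange, 4 fell: PDHA1, the catalytic subunit of pyruvate dehydrogenase, by 0.64, GOT2, a mitochondrial aspartate aminotransferase, by 0.65, SLC25A12, an aspartate-glutamate carrier, by 0.72 and ME2, the mitochondrial malic enzyme, by 0.71.

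Of 7 genes of fatty acid activation and carnitine transfer, CROT, the peroxisomal carnitine octanoyltransferase, fell by 0.97 (SE 0.21, adjusted p = 0.0275), and ACSL1, an acyl-CoA synthetase, had a difference of 0.01. Of 7 peroxisomal oxidation genes ACOX2, an oxidase of branched chains, fell by 0.53. Among 12 genes of ketone body, branched-chain and propionate breakdown, 4 fell, among them PCCA, a propionyl-CoA carboxylase subunit, by 0.93, HSD17B10, a dehydrogenase of isoleucine breakdown, by 0.49 and OXCT1, which activates ketone bodies, by 0.43. AUH, an enzyme of leucine breakdown, rose by 0.42 (SE 0.09, adjusted p = 0.0287). Of 8 other regulators TFAM, the mitochondrial transcription factor, fell by 0.67 (SE 0.12, adjusted p = 0.0177) and all 4 of its probe sets had a difference below 0. ESRRA, an orphan receptor of these pathways, had a difference of 0.05.

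Promoter windows were found in RefSeq for 36 of the 41 genes, 49 windows in all. The core ACGTG lay in 9 of the 49 (18.4%), and 21.4% of all windows hold it. It lay in 1 of 16 windows of genes that fell, that of ETFB, and in 7 of 30 windows of genes that did not pass. The ETS core CCGGAAG lay in 9 of 49 (18.4%, against 10.3% of all windows), in 4 of 16 windows of genes that fell (ECI1, ETFB, IDH3B and SLC25A20) and in 5 of 30 of genes that did not pass (CPT2, DLST, IDH3G, MDH2 and PPARA). The estrogen-related receptor site TCAAGGTCA, also searched on both strands, lay in none of the 49, and 0.353% of all windows hold it.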

How the data were processed

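RNA of U87-EV xenograft tumours was measured on 6 one-colour Affymetrix arrays. The authors deposited expression values for 54675 probe sets, made with GCOS 1.1.1.052 and GCRMA (no version given), per the submitters' processing notes. GCRMA adjusts for background from each probe's base composition, brings arrays to 1 distribution and gives 1 value per probe set. The deposited values were taken as log2 from their range, since no source used here states the scale. Human probes can also bind RNA of the mouse host, which was not separated. Array dates are not given in the sources used here and no batch could be tested.

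From these values, 62 control probe sets were left out, and 41091 probe sets had 1 gene symbol, updated through gene identifiers for 41037. The test was limma's (version 3.58.1, R 4.3.3; lmFit and eBayes, no covariate) over 10233 genes, and separately over 18469 probe sets, with a mean of at least 4. Levels are means ± SD of 3 arrays, and the number of arrays limits the precision. Intervals are 95% intervals of the limma fit. The fit was checked on simulated data with 200 changed genes, shifted by 1 or 2 log2 units, with independent noise for each gene. The members that fell differed by less, so this check does not cover calls of their size. The members and all lists were chosen with earlier results of these data known. Values on every array are given for members past the threshold, the carnitine genes and the regulators; of other pathway genes those past the threshold were named, up to 4 a list. IDH3G, OGDH, DLST, CS, IDH2, HADHB, SUCLG2, ACSL1, ESRRA, DECR2 and PECR were given values outside that rule after they were seen. Alternatives were another choice of probe set, other filters, a floor at 4, 2 other scalings, another prior, RNA quality covariates, a replicate block and leaving out each array.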

Additional observations from a re-analysis of the deposited data

How the results depend on the processing

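Ranges over the 6 fits that left out 1 array were 558 to 2074 for all genes past the threshold (1950 with all arrays), 2 to 11 for members lower (13), 0 to 2 for members higher (0), 2 to 5 for cycle genes lower (5), 0 to 4 for beta-oxidation genes lower (4), 0 to 1 for carnitine genes past the threshold (2) and 0 to 10 for probe sets of members (17; without control 1, 19 of them had an unadjusted p under 0.05). The median difference of members was -0.27 to -0.21 over these fits. Without the filter, which adds dim genes, 598 genes, 2 members lower, 2 cycle genes, 0 beta-oxidation genes and 0 carnitine genes passed. In that fit 20 members and 3416 of all genes had an unadjusted p under 0.05. With the mean of all probe sets 10 members were lower, 1, PPARA, was higher, 3 cycle genes were lower and 1 carnitine gene passed. Deviations of same-numbered arrays correlated at -0.05, -0.01 and -0.05 over genes, and those of differently numbered arrays at -0.21 to 0.23. These correlations cannot settle whether arrays of the 2 groups are paired. With the replicate block 904 genes, 3 members (3 of the cycle, 0 of beta-oxidation, 0 carnitine) and 3 probe sets passed. At an unadjusted p under 0.05, 13 members were lower and 2 higher, and 3119 of all genes were under it. With the ACTB covariate 24 genes and 0 members passed, in the cycle, beta-oxidation and carnitine transport alike, and the median was -0.35. With the GAPDH covariate 0 genes and 0 members passed (limma; 1427 genes at an unadjusted p under 0.05); the groups did not overlap in that covariate. A filter at 6, a floor at 4, 2 other scalings and a trended robust prior gave 13 to 14 members lower.

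Of 604 values of single members under these alternatives, 481 kept direction and side of the threshold, 95 lost the threshold, 6 gained it and 22 changed sign, all 22 in members that did not pass. Without single arrays, CS lay between -0.12 and 0.11 (above 0 without bevacizumab 1, and at 0.0045 without control 1), OGDH between -0.051 and 0.36 (below 0 without bevacizumab 2, and at -0.039 without bevacizumab 3), ECHS1 between -0.025 and 0.14 (below 0 without bevacizumab 2), CPT2 between -0.019 and 0.13 and ACADSB with a highest value of 0.029 (both turned without bevacizumab 3). With probe sets averaged OGDH was at -0.085. With the ACTB covariate CS was at 0.20, IDH3G at 0.0084, DLST at -0.16 and ECHS1 at -0.021. With the GAPDH covariate IDH1 was at 0.11, IDH2 at -0.36, OGDH at -0.89, PC at -0.13, CPT1C at -0.44, CPT2 at -0.18, ACADS at -0.014, ACADSB at 0.34, ECHS1 at -0.090 and ETFDH at 0.34. The cause of these changes was not tested.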
